A study of Mus musculus with 12 samples.

Results

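The genes described here encode the proteins that a maturing neutrophil packs into its specific and gelatinase granules, together with the calgranulins of its cytosol. They were Ltf, Ngp, Camp, Mmp8, Mmp9, Lcn2, Chil3, S100a8, S100a9 and Cd177, 10 genes chosen by symbol. The platform annotation gave 11 probe sets to exactly 1 of these symbols, of 45037 probe sets and 18193 genes measured, with a pair of probe sets for Mmp9 and a single one for each other gene. The arrays profiled KSL cells of mouse bone marrow, which carry c-Kit and Sca-1, lack lineage markers and include the stem cells and early progenitors. The mice were wild type or Fancc-/- (Fancc-deficient) and 2 to 4 months old. Every group spent 24 h in medium containing 10% serum, SCF, Flt3L, IL-11 and IL-6, and TNF (tumour necrosis factor alpha, 10 ng/ml) was present or absent. Each of the 4 groups (untreated wild type, TNF-treated wild type, untreated mutant, TNF-treated mutant) had 3 arrays. Values are log2 expression after RMA, so a difference of 1 is a doubling. Nothing in the labels said that the 3 arrays of a group came from separate mice or cultures, so the spread that p-values rest on may be partly technical.

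Neutrophil granules are filled in sequence as the cell matures: the primary granules with myeloperoxidase and serine proteases come first, then the specific granules with lactoferrin and the cathelicidin, then the gelatinase granules. Transcription of the specific granule genes depends on factors of the C/EBP family, above all C/EBP-epsilon, and such genes are therefore used as markers of the myelocyte and later stages. Stem cells and early progenitors are not known for making these proteins, and the sort removed cells carrying lineage surface markers before culture. In bulk samples such as these, fewer cells of a type and less RNA per cell cannot be told apart.

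The labelled cell type was compared with its markers. Kit, the receptor for stem cell factor, read from 9.95 to 10.77 over the 12 arrays. The mean over 10 measured KSL markers ran from 9.66 to 10.15 over the 12 arrays, while Ly6a was not analysed here. That of 9 measured primary granule stage genes ran from 11.95 to 12.35 on untreated wild-type and 12.23 to 12.54 on untreated mutant arrays. With TNF it ran from 10.96 to 11.66 and from 10.74 to 11.8. The KSL markers alone therefore do not show that the cultured cells kept the labelled identity. Fancc, whose product belongs to the Fanconi anaemia core complex, did not read lower on arrays of the mutant label (from 8.73 to 9.16, against 8.22 to 8.65 in wild type). Where its probe set lies relative to the disrupted part is not known here, so this checks nothing and genotype is given as labelled. The sex-linked transcripts Xist and Eif2s3y differed between replicates of 3 of the 4 groups. Xist read low on untreated wild-type arrays 1 and 2 (5.47 and 5.06) and untreated mutant array 1 (5.12). It read from 12.2 to 13.08 on the treated arrays, so the TNF differences are partly confounded with sex-linked expression. Eif2s3y read low on treated wild-type array 3 (3.79) and untreated mutant array 2 (4.16). Results that the levels of both as covariates move are stated where they occur. Of 12 NF-kB target genes 11 rose with TNF averaged over genotype, where 5.81% of all genes did (limma). Among them were Tnfaip3 by 3.64 and Relb by 3.35 on the log2 scale. This list was chosen with earlier results of these data known.

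The windows upstream of these genes are shown so that the letters before their starts can be compared. RefSeq promoter windows (GRCm38.p6) were found for 9 of the 10 genes, all but Mmp9, and the 250 bases before the annotated start were searched on both strands. The motif TTGCNNAA, a form of the letters bound by C/EBP factors, was present in 5 of the 9 windows (Ltf, Ngp, Mmp8, S100a9 and Lcn2) and in 9.56% of all 32851 windows. The 6 windows printed here are those of these 5 genes and of S100a8, whose gene lies next to S100a9 with 0 protein-coding genes between them. Capitals mark the matches to TTGCNNAA, each sequence reads 5′ to 3′ on the gene's strand, and the last base is the one before the start. Their positions are chr9:111019042-111019291 (plus strand) for Ltf, chr9:110419558-110419807 (plus strand) for Ngp, chr9:7558179-7558428 (plus strand) for Mmp8, chr2:32387740-32387989 (minus strand) for Lcn2, chr3:90668821-90669070 (plus strand) for S100a8 and chr3:90695722-90695971 (minus strand) for S100a9.
Ltf: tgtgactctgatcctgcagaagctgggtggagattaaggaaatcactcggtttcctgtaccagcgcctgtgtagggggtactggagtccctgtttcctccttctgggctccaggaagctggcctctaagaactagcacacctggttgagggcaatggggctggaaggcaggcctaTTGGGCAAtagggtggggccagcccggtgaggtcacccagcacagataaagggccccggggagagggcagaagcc
Ngp: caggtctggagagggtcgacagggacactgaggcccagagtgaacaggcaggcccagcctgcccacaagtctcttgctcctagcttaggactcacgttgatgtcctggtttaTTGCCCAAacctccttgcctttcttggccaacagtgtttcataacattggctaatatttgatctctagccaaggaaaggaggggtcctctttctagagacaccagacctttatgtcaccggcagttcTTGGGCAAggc
Mmp8: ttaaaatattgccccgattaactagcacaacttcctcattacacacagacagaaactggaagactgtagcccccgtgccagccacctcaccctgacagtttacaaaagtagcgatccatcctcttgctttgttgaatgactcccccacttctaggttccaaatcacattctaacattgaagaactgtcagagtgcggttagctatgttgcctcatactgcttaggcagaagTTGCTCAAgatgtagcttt
Lcn2: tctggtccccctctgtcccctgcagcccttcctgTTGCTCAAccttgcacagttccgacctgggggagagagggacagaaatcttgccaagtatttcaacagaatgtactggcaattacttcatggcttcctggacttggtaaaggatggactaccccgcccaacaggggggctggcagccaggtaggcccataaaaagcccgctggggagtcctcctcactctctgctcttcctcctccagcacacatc
S100a8: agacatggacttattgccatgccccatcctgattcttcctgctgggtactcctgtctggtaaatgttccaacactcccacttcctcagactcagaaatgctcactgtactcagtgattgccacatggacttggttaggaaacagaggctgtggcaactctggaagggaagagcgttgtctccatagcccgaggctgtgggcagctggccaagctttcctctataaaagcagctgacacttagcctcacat
S100a9: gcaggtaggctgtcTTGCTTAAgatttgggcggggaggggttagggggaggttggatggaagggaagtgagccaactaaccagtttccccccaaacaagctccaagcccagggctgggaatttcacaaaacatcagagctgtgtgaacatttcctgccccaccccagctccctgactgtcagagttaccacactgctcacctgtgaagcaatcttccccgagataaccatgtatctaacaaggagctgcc

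Ngp held the motif at both 138 and 11 bases before the start, counted to the first base of the match, and Mmp8 held it at 19, Ltf at 75, Lcn2 at 216 and S100a9 at 236. The looser TTNCNNAA, which every TTGCNNAA also matches, was in 8 of the 9 windows and in 36.8% of all windows. GAGGAA, the core of PU.1 sites, was in 5 of 9 (Lcn2, S100a8, Cd177, Mmp8 and Ltf; 23.3% of all), and the longer GAGGAAGT within it in S100a8 and Mmp8 (2 of 9; 2.44% of all). The AP-1 form TGANTCA was in 0 of 9 (6.75% of all). CCAAT was in 3 of 9 (33.8% of all), and the RUNX forms AACCGC and TGTGGT were in 1 each (5.38% and 14% of all). These 8 motifs were chosen after the expression values were known, a match describes letters and not a site in use, and the absence of a match says only that these letters are not in this window.

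In wild-type cells 6 of the 10 genes fell (Ltf, Ngp, Camp, Mmp8, Chil3 and S100a8) and 0 rose, where 2.33% of all 18193 genes fell and 2.69% rose (limma, Benjamini-Hochberg adjusted p under 0.05). On the arrays labelled mutant Ltf and Mmp8 fell, 2 of 10, where 1.86% of all genes fell and 2.45% rose. Each gene's spread was estimated over all groups together. With only the groups compared, 4 fell in wild type (Ltf, Mmp8, Chil3 and S100a8) and 5 in the mutant (Ltf, Ngp, Mmp8, S100a9 and Cd177). Of all 18193 genes 221 and 280 fell in those fits. Averaged over genotype 8 of 10 fell, all but Lcn2 and Mmp9, where 6.32% of all genes fell and 5.81% rose. The median log2 difference of the 10 genes was -2.9 in wild type, -1.64 in the mutant and -2.38 on average (5.21-fold lower), and the median of all genes was -0.03 in each. The treated arrays lay wholly below the untreated ones for 9 of 10 genes in wild type, against 11.7% of all genes, and for 8 of 10 in the mutant, against 15.8%. With covariates for Xist and Eif2s3y the count averaged over genotype was 5 (Ltf, Ngp, Mmp8, Chil3 and S100a8). Among all 18193 genes the number that fell also dropped, from 1150 to 606.

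**Figure D1:**
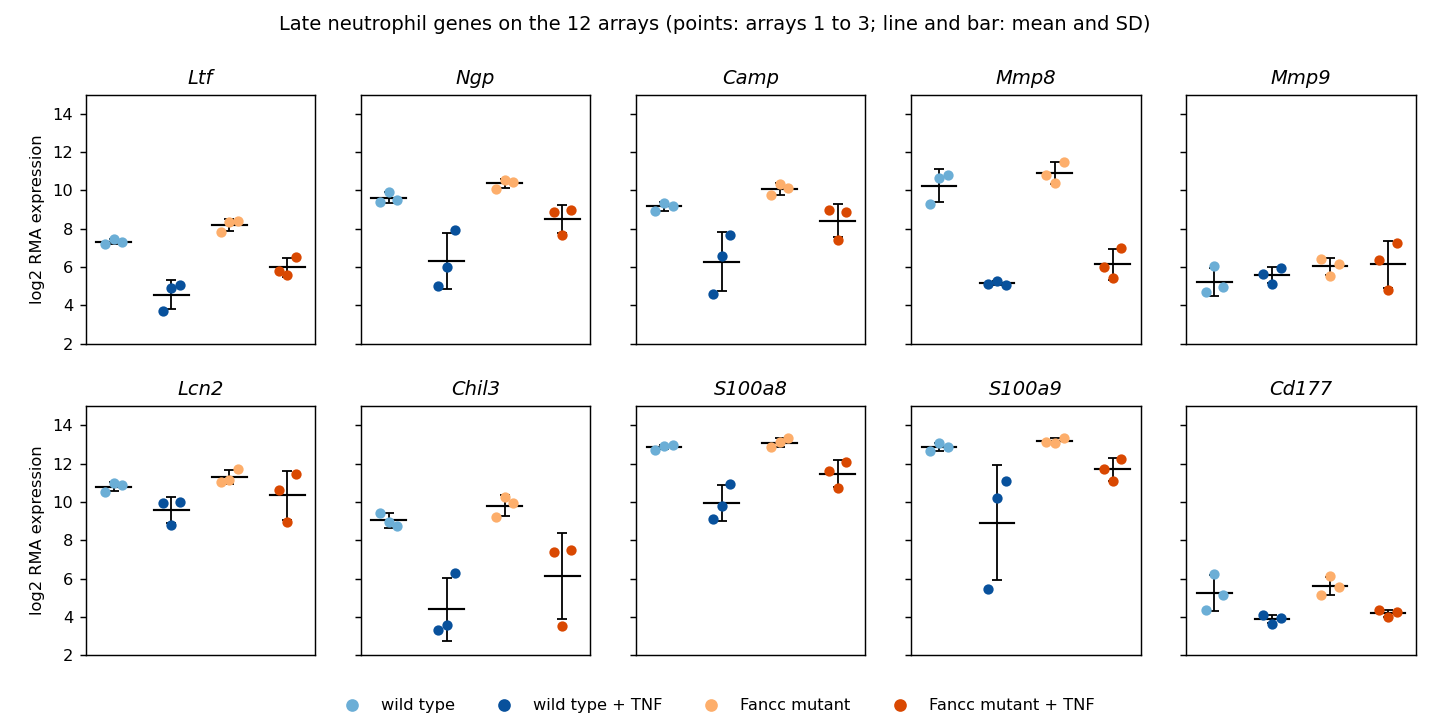
Log2 RMA expression (vertical axis) of the 10 late neutrophil genes on each of the 12 arrays, with 1 panel per gene and the brighter probe set for Mmp9; points are arrays, horizontal lines group means and bars 1 SD (n = 3). TNF-treated arrays sit below untreated ones of the same genotype in every panel but that of Mmp9 and, in the mutant, that of Lcn2, and S100a9 read 5.47 on treated wild-type array 1 against 10.21 and 11.08 on the others.

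Ltf encodes lactoferrin, the iron-binding protein of specific granules. It read 7.19, 7.48 and 7.33 in untreated wild-type cells and 3.7, 4.92 and 5.07 on the treated ones. It read 7.85, 8.36 and 8.4 on the untreated mutant arrays and 5.82, 5.61 and 6.53 on the treated ones. Within each genotype no treated array reached an untreated one, and every mutant array stood above every wild-type array of the same treatment. The TNF difference was -2.77 in wild type (SE 0.34, limma adjusted p = 0.00102) and -2.21 in the mutant (SE 0.34, 4.64-fold lower, adjusted p = 0.0044). Both calls held under all 22 alternatives, and the treated wild-type arrays read near the floor, which limits the size of that difference.

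Ngp encodes neutrophilic granule protein, a member of the cathelicidin family stored in specific granules. It read 9.4, 9.94 and 9.49 in untreated wild-type cells and 5.04, 5.99 and 7.92 with TNF. In mutant cells it read 10.1, 10.55 and 10.45 without TNF and 8.87, 7.66 and 9 with it. The groups with and without TNF did not overlap in either genotype, and the treated wild-type arrays differed widely among themselves. TNF lowered Ngp by a log2 difference of -3.29 in wild type (SE 0.6, limma adjusted p = 0.00993), which did not pass when only these groups were fitted (adjusted p = 0.0605). The difference of -1.86 in the mutant (SE 0.6) did not pass (adjusted p = 0.126), but did without treated wild-type array 3 (0.0198) or with only the groups compared (0.041). Averaged over genotype Ngp fell by 2.57 on the log2 scale (SE 0.42, adjusted p = 0.00248).

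Camp encodes the cathelicidin antimicrobial peptide, and in the GRCm38.p6 annotation it lies on chromosome 9 with 8 protein-coding genes between it and Ngp and 20 more between Ngp and Ltf. Camp read 8.92, 9.36 and 9.21 in untreated wild-type cells and 4.6, 6.6 and 7.67 with TNF. The mutant arrays gave 9.75, 10.33 and 10.14 without TNF and 8.97, 7.42 and 8.88 with it. All treated arrays were below the untreated ones of their genotype, and treated wild-type array 1 was the lowest of the 12. The difference was -2.88 in wild type (SE 0.64, limma adjusted p = 0.0278) and -1.65 in the mutant (SE 0.64, adjusted p = 0.214, not passing). The wild-type call was lost without untreated array 1, 2 or 3 or treated array 2 (adjusted p = 0.0561, 0.0821, 0.0845 and 0.0603), with the covariates (0.0718) and when only these groups were fitted (0.104). The average of both genotypes passed (-2.26, SE 0.45, adjusted p = 0.00812), though not with the covariates (0.0503).

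Lcn2 encodes lipocalin 2, which binds bacterial siderophores and is known as a specific granule protein that many other cells also make in inflammation. It read 10.52, 10.96 and 10.89 in untreated wild-type cells and 9.95, 8.81 and 10 with TNF. Its mutant values were 11.03, 11.16 and 11.72 without TNF and 10.61, 8.94 and 11.47 with it. The groups did not overlap in wild type and did in the mutant, where treated array 3 lay above the untreated arrays 1 and 2. The TNF difference was -1.2 in wild type (95% interval -2.39 to -0.02, limma adjusted p = 0.272) and -0.96 in the mutant (-2.15 to 0.22, adjusted p = 0.416), and neither passed. Without treated mutant array 2 the mutant difference was -0.27 (adjusted p = 0.859) and without array 3 it was -1.53 (0.156). The average of -1.08 (SE 0.38) did not pass either (adjusted p = 0.0943), but did without treated mutant array 3 (-1.37, adjusted p = 0.0258).

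Mmp8 encodes neutrophil collagenase, a metalloproteinase of specific granules. It read 9.27, 10.64 and 10.83 in untreated wild-type cells and 5.1, 5.29 and 5.09 with TNF. In mutant cells it read 10.8, 10.37 and 11.51 without TNF and 5.99, 5.43 and 7.02 with it. The gap between the lowest untreated and the highest treated array was 3.98 in wild type and 3.35 in the mutant, so the groups stood far apart. Averaged over genotype Mmp8 differed by -4.92 (SE 0.33, 30.2-fold lower, limma adjusted p = 6.62e-06), farther from 0 than each other gene of the group, and it passed in each genotype under all 22 alternatives. Its treated wild-type arrays read below the median of all probe sets (5.96 to 6.06), where fold changes are compressed, which limits this size and rank. Mmp9 encodes gelatinase B, the enzyme for which gelatinase granules are named. Its brighter probe set read 4.7, 6.07 and 4.95 in untreated wild-type cells and 5.64, 5.14 and 5.97 with TNF. The mutant arrays gave 6.43, 5.56 and 6.17 without TNF and 6.36, 4.83 and 7.25 with it. The other probe set read 5.04, 5.77 and 5.09 untreated and 5.96, 5.58 and 5.21 treated in wild type, and 5.71, 6.54 and 5.56 untreated and 5.83, 5.53 and 6.11 treated in the mutant. Treated and untreated arrays overlapped in both genotypes with either probe set. The TNF difference of Mmp9 was 0.35 in wild type (95% interval -0.86 to 1.56) and 0.09 in the mutant (-1.12 to 1.31), neither of which passed (limma adjusted p = 0.806 and 0.963). The other Mmp9 probe set differed by 0.28 (SE 0.3) and -0.12 (SE 0.3). The intervals are wide and do not show that Mmp9 stayed level.

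Chil3 encodes the chitinase-like lectin Ym1, made by neutrophil precursors and by alternatively activated macrophages. It read 9.44, 8.93 and 8.72 in untreated wild-type cells and 3.34, 3.58 and 6.3 with TNF. Its mutant values were 9.22, 10.25 and 9.95 without TNF and 7.38, 3.52 and 7.47 with it. All treated arrays were lower than the untreated ones, but they fell into low and intermediate values in both genotypes, with 2 low arrays of 3 in wild type and 1 of 3 in the mutant. The difference of -4.62 in wild type passed (SE 1.01, limma adjusted p = 0.0254), while -3.68 in the mutant did not (SE 1.01, adjusted p = 0.0736) except without treated wild-type array 3 (0.0496) and with trended and robust moderation (0.0437). Without treated mutant array 2 it was -2.38 (adjusted p = 0.154). The wild-type call was lost without untreated array 1, 2 or 3 or treated array 1 or 2 (adjusted p from 0.0652 to 0.0868) and with the covariates (0.0866). Averaged over genotype the difference was -4.15 (SE 0.71, adjusted p = 0.00333), and its size is limited by the low treated arrays, which read below the first quartile of all probe sets (4.11 to 4.18). Its close paralog Chil4 read from 3.75 to 4.16 over the 12 arrays, and how far the Chil3 probe set also reads Chil4 was not tested.

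S100a8 and S100a9 encode the calgranulins, which pair as calprotectin, a calcium- and zinc-binding protein that fills the neutrophil cytosol. S100a8 read 12.72, 12.9 and 12.97 in untreated wild-type cells and 9.12, 9.77 and 10.93 with TNF. In mutant cells it read 12.84, 13.13 and 13.32 without TNF and 11.6, 10.73 and 12.09 with it. The groups did not overlap in either genotype. S100a8 differed with TNF by -2.93 in wild type (SE 0.42, limma adjusted p = 0.00252), a call that held under all 22 alternatives. The difference of -1.62 in the mutant (SE 0.42) did not pass (adjusted p = 0.0579), and it did without treated wild-type array 1 or 3 (0.0307 and 0.0183), with centred arrays (0.0397), with the filter on low values (0.0404) and with trended and robust moderation (0.031).

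S100a9 read 12.63, 13.08 and 12.86 in untreated wild-type cells and 5.47, 10.21 and 11.08 with TNF. The mutant arrays gave 13.1, 13.07 and 13.34 without TNF and 11.72, 11.1 and 12.26 with it. Treated wild-type array 1 stood far below every other array, and its partner S100a8 showed no such gap there. The TNF difference was -3.94 in wild type (SE 1.09, limma adjusted p = 0.069) and -1.48 in the mutant (SE 1.09, adjusted p = 0.566), neither passing. Without treated wild-type array 1 the differences were -2.21 in wild type (adjusted p = 0.00475) and -1.48 in the mutant (0.02), and both passed. Without treated wild-type array 3 that of wild type was -5.02 (0.0312), and it also passed with the filter on low values (0.0487). With only the groups compared that of the mutant passed (0.0387). The average of -2.71 (SE 0.77, adjusted p = 0.0436) was lost without any 1 of the untreated arrays or of the treated mutant arrays (adjusted p from 0.0639 to 0.0954), when all probe sets were tested (0.06), with trended and robust moderation (0.0734) and with the covariates (0.202).

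Cd177 encodes a surface and granule glycoprotein of neutrophils that binds Pecam1. It read 4.38, 6.26 and 5.12 in untreated wild-type cells and 4.09, 3.64 and 3.94 with TNF. Its mutant values were 5.16, 6.11 and 5.55 without TNF and 4.34, 3.98 and 4.23 with it. Treated arrays were below untreated ones in both genotypes, and all were low, where fold changes are compressed. The differences of -1.36 and -1.42 (SE 0.39 each) did not pass within a genotype (limma adjusted p = 0.0812 and 0.0736), though their average of -1.39 did (SE 0.28, adjusted p = 0.00773), except with the covariates (0.0623). Without untreated wild-type array 1 the wild-type difference was -1.8 (adjusted p = 0.0154), without array 2 it was -0.86 (0.151), and with array weights it passed (0.025). The mutant one passed without untreated wild-type array 1 or 2 (0.0251 and 0.0148), with trended and robust moderation (0.0456), with array weights (0.0263) and with only the groups compared (0.0269).

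**Figure D2:**
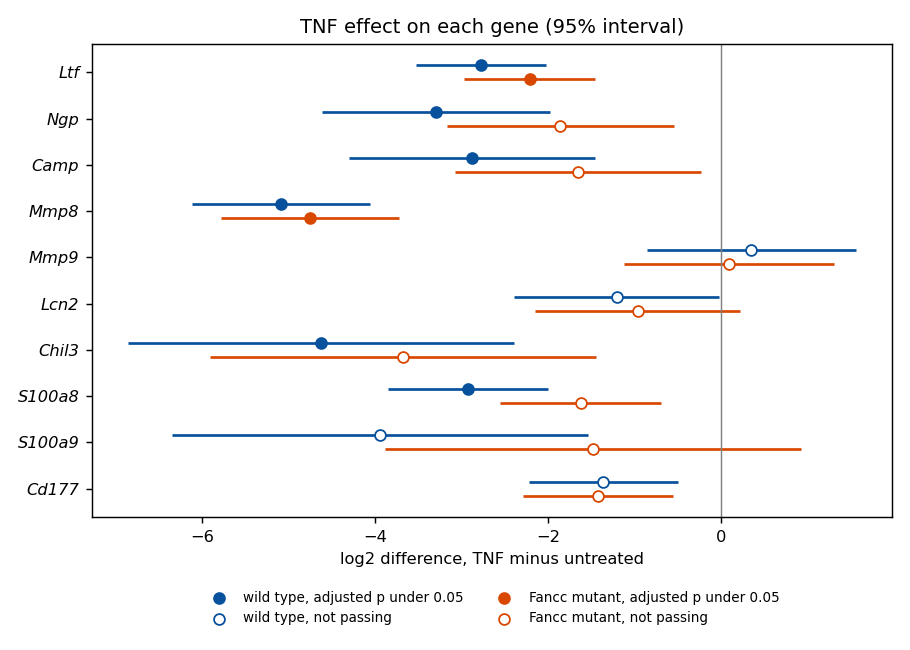
Log2 difference between TNF-treated and untreated arrays (horizontal axis) of each late neutrophil gene in wild type (blue) and on the arrays labelled mutant (orange), with 95% intervals from limma; filled points passed an adjusted p under 0.05. Mmp8 lay near -5 in both genotypes (-5.08 and -4.75), and the Mmp9 intervals spanned 0.

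The TNF effect was compared between genotypes directly. For 8 of the 10 genes the TNF difference was less negative in the mutant, the others being Mmp9 and Cd177. No gene passed (0 of 10 and 0 of 18193 in limma; 0 of 10 at an unadjusted p under 0.05, where 527 of all genes were, 0% called). S100a8 had the smallest unadjusted p of the group (0.0512), with a TNF difference higher by 1.3 in the mutant (95% interval -0.01 to 2.61). S100a9 differed by 2.46 (-0.94 to 5.85), Ngp by 1.44 (-0.42 to 3.3) and Camp by 1.23 (-0.78 to 3.23). Without treated wild-type array 1 these were 0.73 for S100a9, 0.8 for Ngp and 0.38 for Camp, and without treated wild-type array 3 those of Ngp and Camp were 2.24 and 1.91. The half-width of this interval was 1.69 at the median of the 10 genes, against 0.38 over all genes, so the arrays could not resolve a difference of 1 for most of them.

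The arrays labelled mutant were compared with the wild-type arrays in each treatment. All 10 had a log2 difference above 0 without TNF and all 10 with TNF, where 45.8% and 47.3% of all genes did and 26.8% did in both. These comparisons use the same arrays as those of TNF and are not independent of them. Without TNF the median difference was 0.7 (from 0.23 for S100a8 to 0.91 for Camp), and with TNF it was 1.48 (from 0.29 for Cd177 to 2.77 for S100a9). Without treated wild-type array 1 the differences with TNF were 1.05 for S100a9 and 1.29 for Camp, and without untreated wild-type array 1 that of Cd177 without TNF was -0.08. None of the 10 passed in limma, without TNF, with TNF or on average, where 0.0055%, 0.0055% and 0.022% of all genes did. At an unadjusted p under 0.05 there were 1 of 10 without TNF (Ltf), 5 of 10 with TNF (Ltf, Ngp, Camp, S100a8 and S100a9) and 5 of 10 on average (Ltf, Ngp, Camp, Mmp8 and S100a8). Over all genes the same counts were 749, 1018 and 1344. These p-values rest on 1 spread per gene over all 4 groups. The median SD of the 10 genes was 0.83 and 0.77 on treated wild-type and mutant arrays, against 0.26 and 0.34 on untreated ones. For genes that spread more with TNF, the intervals with TNF given below are therefore too narrow and these unadjusted p-values too small. The 10 genes come from the same arrays and moved together from array to array, so they are not 10 independent observations.

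Ltf had the smallest unadjusted p for genotype. It was higher in the mutant by 0.87 without TNF (95% interval 0.12 to 1.62, limma adjusted p = 0.992) and by 1.42 with TNF (0.67 to 2.17, adjusted p = 0.39). Its average was 1.14 (SE 0.24, higher on every mutant array than on each wild-type array of the same treatment, adjusted p = 0.305), with a range of 0.93 to 1.27 over 21 alternatives. Ngp was higher by 2.19 with TNF (0.88 to 3.51, adjusted p = 0.463), Camp by 2.13 (0.71 to 3.55, adjusted p = 0.585) and S100a8 by 1.54 (0.61 to 2.46, adjusted p = 0.474). Without TNF those genes differed by 0.75, 0.91 and 0.23. The mutant arrays stood wholly above the wild-type arrays for 4 of 10 genes without TNF (Ltf, Ngp, Camp and Lcn2), against 3.82% of all genes, and for 3 of 10 with TNF (Ltf, Mmp8 and S100a9), against 4.2%. For Ngp and Camp with TNF, treated wild-type array 3 overlapped the mutant array 2. The averages over treatment were examined after the values were seen.

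**Figure D3:**
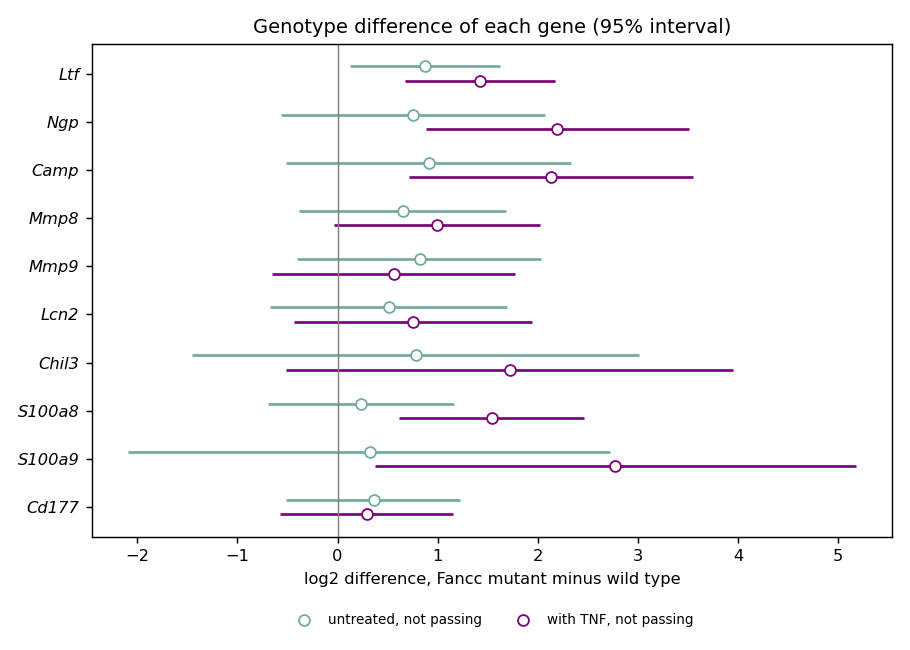
Log2 difference between the arrays labelled mutant and the wild-type arrays (horizontal axis) of each late neutrophil gene, without TNF (green) and with TNF (purple), with 95% intervals from limma. All points lie above 0 and none passed an adjusted p under 0.05; with TNF the intervals of Ltf, Ngp, Camp, S100a8 and S100a9 did not reach 0.

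Replicates of the treated groups differed from each other more than those of the untreated groups. The median SD of the 10 genes was 0.26 on the untreated and 0.83 on the treated wild-type arrays, and 0.34 and 0.77 on those of the mutant. Over all genes the median SD was 0.16 and 0.13 in wild type and 0.13 and 0.11 in the mutant. The SD was larger with TNF for 7 of the 10 genes in wild type (not Mmp8, Mmp9 or Cd177), where 42.2% of all genes did so, and for 9 of 10 in the mutant (not Cd177), where 43.8% did. Within groups, the 10 genes were often high or low on the same array. Treated mutant array 2 was the lowest of its group for 10 of the 10 genes, where 37.8% of all genes were lowest there, and the median deviation of the 10 from their group mean was -0.79. Treated wild-type array 3 was the highest of its group for 8 of 10, where 25.5% of all genes were (median deviation 0.75), and treated wild-type array 1 was the lowest for 6 of 10, where 31.7% of all genes were (-0.84). Untreated wild-type array 1 was the lowest for 9 of 10, where 32.1% of all genes were, and untreated mutant array 1 for 7 of 10, where 30.8% were. The median deviations of the untreated arrays lay between -0.27 and 0.21.

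**Figure D4:**
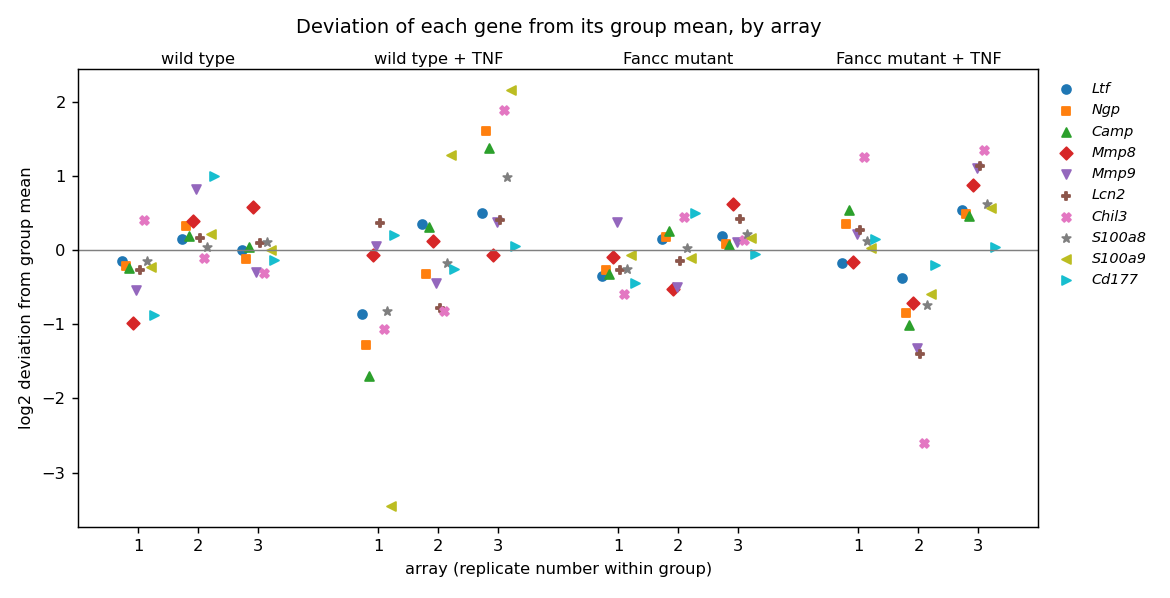
Deviation of each late neutrophil gene from its group mean (vertical axis, log2) on each array, with arrays ordered by group and replicate number and 1 symbol per gene. On treated mutant array 2 all 10 genes lie below 0, on treated mutant array 3 all 10 lie above 0, and the untreated arrays spread less.

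The rest of the granulocyte programme was examined through lists of related genes, whose counts stand beside 6.32% of all genes that fell and 5.81% that rose with TNF averaged over genotype. Of 19 measured other late neutrophil genes (27 listed), 8 fell and 2 rose with TNF averaged over genotype in limma, with a median of -0.39. Cxcr2, the receptor for neutrophil-attracting chemokines, fell by 2.53 on the log2 scale (SE 0.14), Pglyrp1, a peptidoglycan-binding granule protein, by 1.63 (SE 0.14), Ltb4r1, the leukotriene B4 receptor, by 1.35 (SE 0.18) and Slfn4 by 1.28 (SE 0.35). Il1f9, an interleukin-36 cytokine gene, rose by 1.79 (SE 0.4) and Hp, haptoglobin, which specific granules also hold, rose by 1.2 (SE 0.3). Of 9 measured genes listed for the primary granule stage, not all of them granule proteins, 6 fell and 0 rose (median -0.92). Among them were Elane, neutrophil elastase (-3.54, SE 0.55), Fcnb, a ficolin (-1.22, SE 0.19), Prtn3, proteinase 3 (-1.21, SE 0.2), and Ms4a3 (-1, SE 0.26). For genotype averaged over treatment the medians of these lists were 0.31 and 0.11, and 0 genes of either passed.

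Of 14 measured granulocyte regulators 7 fell and 0 rose (median -0.4). Irf8, which favours monocytes over granulocytes, fell by 1.57 (SE 0.16), Gfi1, a repressor needed for neutrophil formation, by 1.18 (SE 0.19), Cebpd by 0.75 (SE 0.21) and Cebpa, the C/EBP factor of early granulocyte commitment, by 0.54 (SE 0.13), all on the log2 scale averaged over genotype. Cebpe was not analysed here. Of 17 receptors and partners of the encoded proteins 3 rose and 5 fell. Fpr2, a formyl peptide receptor that also binds the cathelicidin peptide, rose by 4.46 (SE 0.36) and Mmp14, a membrane metalloproteinase, by 1.53 (SE 0.26), while Itgb2, the beta chain of the leukocyte integrins, rose by 0.44 (SE 0.12). Lrp1, a scavenger receptor that binds lactoferrin, fell by 1.55 (SE 0.24), Timp1, the inhibitor of gelatinase B, by 1.37 (SE 0.17), Pecam1 by 1.18 (SE 0.13) and Tlr4, a receptor reported for calprotectin, by 0.82 (SE 0.13). Among 21 measured relatives from the same gene families 2 rose and 2 fell (median -0.07), shares near those of all genes (5.81% and 6.32%). S100a4 and S100a5 rose by 0.86 (SE 0.09) and 0.81 (SE 0.23), and S100a6 and S100a10 fell by 0.57 (SE 0.12) and 0.23 (SE 0.06).

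Markers of other cells that the culture could hold were counted in the same way, beside 6.32% of all genes that fell and 5.81% that rose. Of 11 monocyte and macrophage markers 6 fell and 1 rose with TNF averaged over genotype, with F13a1 at -4.46 and Cx3cr1 at 2.02, and the list's mean level ran from 8.58 to 9.09 on untreated and 7.75 to 8.16 on treated wild-type arrays, and from 8.7 to 9.33 and 7.81 to 9.06 in the mutant. Among 10 markers of mast cells, basophils or eosinophils 3 fell, including Mcpt8 (-1.82) and Hdc (-1.78), with mean levels from 7.17 to 7.46 untreated and 6.01 to 6.57 treated in wild type, and from 6.43 to 7.21 and 6.06 to 6.95 in the mutant. Within a genotype 3 fell in wild type and 0 in the mutant (medians -1.21 and -0.04), where 2.33% and 1.86% of all genes fell. The interaction called 0 of these 10. In the mutant Mcpt8 differed by -1.48 and Hdc by -1.5 without passing (limma adjusted p = 0.0919 and 0.087). Of 7 dendritic markers 3 rose, including Zbtb46 (3.9) and Ccr7 (0.92). Of 8 erythroid markers 1 rose (Car2, 0.96) and 2 fell, of 6 megakaryocyte markers 2 fell, and of 7 B cell markers 1 rose and 1 fell. None of 7 T and NK markers passed, and their mean level stayed between 4.27 and 4.65, near the floor. Of 10 KSL markers 1 rose, Procr, the endothelial protein C receptor (1.48, SE 0.28), and 0 fell. Mutant minus wild type was above 0 for 9 of 11 monocyte and macrophage markers without TNF and for 10 of 11 with it (medians 0.08 and 0.5). Of 10 mast cell, basophil or eosinophil markers 0 and 9 were above 0, and of 10 KSL markers 1 and 4. Of all genes 45.8% and 47.3% were, and no marker of these lists passed for genotype. The part of cell composition in the fall of the late neutrophil genes was not tested.

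**Figure D5:**
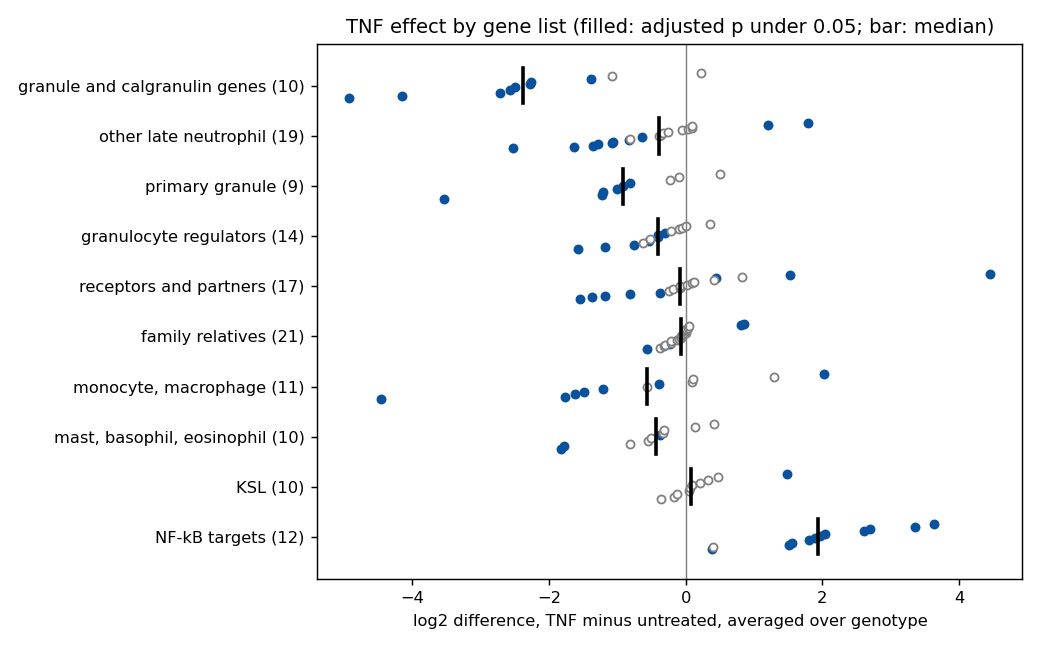
Log2 difference between TNF-treated and untreated arrays averaged over genotype (horizontal axis) for each measured gene of 10 lists, with the number of genes in brackets; filled points passed an adjusted p under 0.05 in limma and vertical bars are medians. The granule and calgranulin genes in the top row have a median of -2.38, the primary granule list -0.92, the other late neutrophil genes -0.39 and the NF-kB targets 1.93.

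Genes outside the group with the most similar pattern were found by the root mean square difference between a gene's 12 values, each minus its own mean, and the median profile of the 10 genes. The 5 nearest were Ms4a4c (0.49 on the log2 scale), Ly86 (0.52), Olfm1 (0.54), Tifab (0.57) and Wfdc17 (0.57). Within the group S100a8 (0.23), Ltf (0.32), Camp (0.33) and Ngp (0.35) lay closest to that profile, which they helped to set, and Chil3 (1.23), Mmp9 (1.41) and Mmp8 (1.48) farthest. Ms4a4c differed with TNF by -2.53 in wild type and -1.77 in the mutant, and stood 1.27 higher in the mutant with TNF.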

How the data were processed

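Per the labels, 5 to 15 ng of total RNA per sample was amplified and hybridised to single-colour Affymetrix mouse arrays, 12 in all. The authors deposited log2 values for each probe set after RMA, per the submitters' processing notes, which name no version here. The scale was judged from their range of 2.14 to 14.94. RMA equalises arrays, so a shift of all genes cannot be seen, and low values have compressed fold changes. Precision is limited by the number of arrays.

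Cultures held IL-6 at 20, IL-11 at 10, Flt3L at 50 and SCF at 10 ng/ml. Of 45101 probe sets, 64 controls were left out, 34945 had 1 symbol, 932 several and 9160 none here. The probe set with the highest mean represented each of 18193 genes. limma 3.58.1 in R 4.3.3 fitted 1 mean per group over 12 arrays, two-sided, with Benjamini-Hochberg adjustment over all genes and a threshold of 0.05. The fit was tested on simulated data, where it recovered 73 to 94% of log2 changes of 1 and 95 to 100% of those of 2. Each simulated gene had 1 spread over all groups, so this does not cover genes that spread more with TNF.

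The genes and lists were chosen with earlier results of these data known. From each list the text names up to 4 genes per direction (2 for cell markers) with the largest called TNF change averaged over genotype; Chil4, Kit, Fancc, Xist and Eif2s3y were added. Same-numbered arrays of different groups deviated together at r above 0.1 in 7 of 18 pairs (from -0.16 to 0.28), so replicate numbers were not treated as pairs. Alternatives were other scalings (median centring, cyclic loess), the mean of probe sets, all 45037 probe sets, a filter keeping 9444 genes, trended and robust moderation, array weights, a replicate block, sex-linked covariates, only the groups compared, and leaving out each array.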

Additional observations from a re-analysis of the deposited data

How the results depend on the processing

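Of the 10 genes, Ltf, Mmp8 and S100a8 in wild type, and Ltf and Mmp8 in the mutant, passed for TNF under every alternative run. The count of the 10 called was 4 to 7 in wild type, 2 to 5 in the mutant and 5 to 9 on average over all alternatives, and 0 for genotype and for the interaction under each. Where all 18193 genes were tested, 410 to 1255 were called in wild type, 444 to 1168 in the mutant and 1270 to 2779 on average. For genotype 0 to 9 were, and for the interaction 0 to 1. In the mutant the count of the 10 was 5 with trended and robust moderation and 5 with only the groups compared, against 2. With only the groups compared wild type gave 4, against 6. Leaving out 1 array gave 2 to 5 in the mutant (4 and 5 without treated wild-type array 1 and 3). With the Xist and Eif2s3y covariates the average gave 5, against 8, while the calls over all genes went from 2207 to 1270. With a replicate block the counts were 6 in wild type, 3 in the mutant and 9 on average, with Lcn2 added there (limma adjusted p = 0.0499) and S100a8 in the mutant (0.0268). The filter on low values removed Mmp9 and Cd177.

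Signs turned only for values that did not pass. The TNF difference of Mmp9 in the mutant was -0.01 with the mean of probe sets. The genotype difference of S100a9 without TNF was -0.01 with the covariates. The interaction of Cd177 was 0.11 with array weights and 0.18 with the covariates. Leaving out 1 array at a time gave ranges of Mmp9 -0.46 to 0.75 for TNF in the mutant, Mmp9 -0.05 to 0.55 for TNF on average, Cd177 -0.08 to 0.86 for genotype without TNF, Mmp8 -0.1 to 0.83 for the interaction, Mmp9 -0.81 to 0.4 for the interaction, Lcn2 -0.32 to 0.94 for the interaction and Cd177 -0.57 to 0.37 for the interaction. The cause was not tested.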
